A study of Mus musculus with 14 samples.

Results

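The genes described here are 48 genes of the cell division cycle, taken from the tables by gene name: 6 factors of the G1-to-S step, 13 genes of DNA replication, 21 mitotic genes, 4 G1 cyclins and kinases and 4 CDK inhibitors. They are called the members below, and the first 2 classes the S-phase members, 19 genes in all. All 48 were rows of the 19337-gene table from newborn retina (P0), and 18 were rows of the 11613-gene table from postnatal day 22 (P22). RNA was sequenced from whole mouse retinas heterozygous or knockout for the long noncoding RNA Peanut. Heterozygous retinas (Peanut +/-, het) were the controls for knockout retinas (Peanut -/-, KO), so every group carried the altered allele, and no wild-type retina was analysed here. The groups were 4 het and 4 KO libraries at P0 and 2 het and 4 KO libraries at P22. The P0 libraries were made after RNase H removal of ribosomal RNA with random hexamers, and the P22 libraries with a Takara SMARTer stranded total RNA kit. Age and kit therefore coincided, and levels were not compared between ages. How the allele was made, and whether each library came from a different animal, are not given in the sources used here, so p-values measured only the spread between these libraries, which may be technical.

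A dividing cell commits to replication when E2F transcription factors, released by cyclin-dependent kinases, switch on the genes for the MCM helicase, nucleotide synthesis and the replication fork. After replication, a later programme under FoxM1 and B-Myb raises the mitotic cyclins, the Aurora and Polo kinases, the centromere proteins and the spindle motors. In the mouse retina at birth, progenitor cells still divide and are at the peak of rod production, and in the weeks that follow division ends. In bulk retina, fewer cells of a type and less RNA per cell cannot be told apart.

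The promoters of a few members are shown as examples, because S-phase and mitotic promoters are known for different sequence words. Each is the 150 bases before the transcription start in the RefSeq promoter table (GRCm38.p6), 5′ to 3′ on the gene's strand. Capitals mark the E2F words searched (TTTCCCGC, TTTCGCGC, TTTGCCGC and TTTGGCGC), the cell cycle homology words (TTTGAA and TTCGAA) and the CCAAT box, each on both strands, and overlapping matches are merged. Mcm6 lies at chr1:128359706-128359855 on the minus strand and Mcm5 at chr8:75109359-75109508 on the plus strand. The mitotic genes Top2a (chr11:99024190-99024339, minus), Ube2c (chr2:164769779-164769928, plus), Plk1 (chr7:122159285-122159434, plus) and Kif20b (chr19:34922208-34922357, plus) follow.
Mcm6: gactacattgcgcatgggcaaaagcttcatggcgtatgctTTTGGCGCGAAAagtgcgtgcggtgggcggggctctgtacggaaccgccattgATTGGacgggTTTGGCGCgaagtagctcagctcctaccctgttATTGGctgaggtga
Mcm5: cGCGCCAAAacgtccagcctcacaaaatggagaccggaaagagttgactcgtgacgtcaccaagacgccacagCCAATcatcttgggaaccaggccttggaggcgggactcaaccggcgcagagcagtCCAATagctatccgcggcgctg
Top2a: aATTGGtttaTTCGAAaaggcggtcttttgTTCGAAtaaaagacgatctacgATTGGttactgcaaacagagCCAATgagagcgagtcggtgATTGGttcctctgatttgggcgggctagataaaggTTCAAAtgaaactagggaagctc
Ube2c: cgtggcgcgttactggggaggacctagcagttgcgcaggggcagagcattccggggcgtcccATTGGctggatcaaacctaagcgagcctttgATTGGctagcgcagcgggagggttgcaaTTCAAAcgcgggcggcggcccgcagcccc
Plk1: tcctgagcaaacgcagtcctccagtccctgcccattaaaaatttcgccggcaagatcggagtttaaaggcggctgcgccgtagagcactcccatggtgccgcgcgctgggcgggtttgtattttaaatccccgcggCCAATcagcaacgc
Kif20b: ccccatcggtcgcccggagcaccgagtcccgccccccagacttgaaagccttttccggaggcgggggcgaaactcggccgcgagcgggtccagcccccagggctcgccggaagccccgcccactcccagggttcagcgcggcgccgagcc

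Over the table's whole window, from 250 bases before to 50 after the start, 39 of the 48 genes had an entry. An E2F word stood in 9 of 16 S-phase members with an entry and in 1 of 17 mitotic members, against 2.60% of the 27025 genes in the table. A cell cycle homology word stood in 13 of 17 mitotic and 4 of 16 S-phase members, against 21.7% of all genes. A CCAAT box was common to both classes, in 11 of 16 and 14 of 17, against 41.1% of all genes. Mcm2, Mcm3 and Rrm2, which are described below and not shown above, had no E2F word in the 150 bases before the start. A match is a description of these letters and not a bound site.

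Library totals at P0 ran from 15028865 to 19833083 reads, and no member stood near the floor of 3 reads, which was at most 0.200 CPM. CPM here are counts scaled to the library total with the TMM method. No row was matched to Peanut under that name, so the knockout itself was not checked at its target here. All 12 retinal progenitor markers and all 10 rod markers were rows of the P0 table, and none was at 0 throughout all 8 libraries. KO library 3 stood apart from the other 3 KO libraries: without it the edgeR quasi-likelihood test called 2839 genes between the genotypes, and with it 1. Its mitochondrial transcripts were 1.32% of the TMM-scaled library size, inside the het range of 1.24% to 1.70% on that scale. KO libraries 1, 2 and 4 stood at 1.92%, 2.70% and 2.08%. No member passed the edgeR test with KO library 3 included, so each P0 call named below is a call without it, with the value over all 8 libraries beside it. The choice to leave out KO library 3 was made with earlier results of these data known. These calls therefore have no independent support, and their p-values do not allow for that choice.

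Per exonic length, the proliferation antigen Mki67 was the highest of the 48 genes in het retina at P0, at 152 ± 15.4 RPKM (SD, n = 4). Top2a, the topoisomerase that untangles sister chromatids, followed at 103 ± 12.1 RPKM, Pcna, the sliding clamp of the replication fork, at 98.0 ± 14.8 RPKM and Cdk4, the kinase partner of D-type cyclins, at 95.2 ± 10.2 RPKM. These last 3 lay within their spread of each other. The helicase subunits lay lower, with Mcm7 at 52.8 ± 3.76, Mcm6 at 45.1 ± 1.49 and Mcm2 at 23.7 ± 1.72 RPKM. The lowest means were those of the D-type cyclins Ccnd2, at 4.25 ± 0.883 RPKM, and Ccnd3, at 3.01 ± 0.261 RPKM. Gins2, at 4.43 ± 0.777 RPKM, lay within the spread of Ccnd2.

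Across all 8 P0 libraries, no cell cycle gene passed the test between KO and het. The edgeR quasi-likelihood test with Benjamini-Hochberg adjustment over all 19337 genes called 0 of the 48 members at 0.05 (0.00517% of all genes were called), and the smallest adjusted p among the members was 0.526. At an unadjusted p under 0.05, 3 members were lower in KO (E2f3, Mcm2 and Mcm5; 4.31% of all genes) and 2 higher (Kif20b and Cenpe; 3.86%). No member had every KO library below every het library (0.946% of all genes) or above (1.41%). DESeq2 and the exact test called 0 as well, while limma-voom with sample weights, which gives a divergent library less influence, called 15 lower and 3 higher (8.66% and 2.46% of all genes). The median log2 fold change was -0.21 over the 19 S-phase members, of which 14 were negative, and 0.08 over the 21 mitotic members, of which 7 were negative. Over all genes tested it was 0.03, with 45.1% negative. The S-phase median depended on the libraries: it was -0.12 without KO library 2 and -0.35 without KO library 3. With GC-corrected offsets, described with the GC content below, it was -0.12 over all 8 libraries.

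Leaving out KO library 3, 20 of the 48 genes passed the same test, most of them lower in KO. The 18 lower members (12.6% of all genes were called lower) comprised 10 of 19 S-phase genes, 5 of 21 mitotic genes, 2 of 4 G1 cyclins and kinases and 1 of 4 CDK inhibitors. Both higher members, Kif20b and Cenpe, were mitotic (2.06% of all genes were called higher). Every one of the 3 remaining KO libraries lay below every het library for 20 members (18% of all genes) and above for 5 (7.97%). Scaling by library totals alone shifted the all-gene median from 0.02 to 0.10 (log2) and the split over all genes from 2440 lower and 399 higher to 1481 lower and 1156 higher. The members then split into 15 lower and 7 higher, with Bub1, Ccnb1, Ccne2, Cenpf and Nusap1 added to the higher ones. The members' count fell to 12 when KO library 2 was left out as well, with 11 lower and 1 higher (5.68% and 0.429% of all genes).

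**Figure D1:**
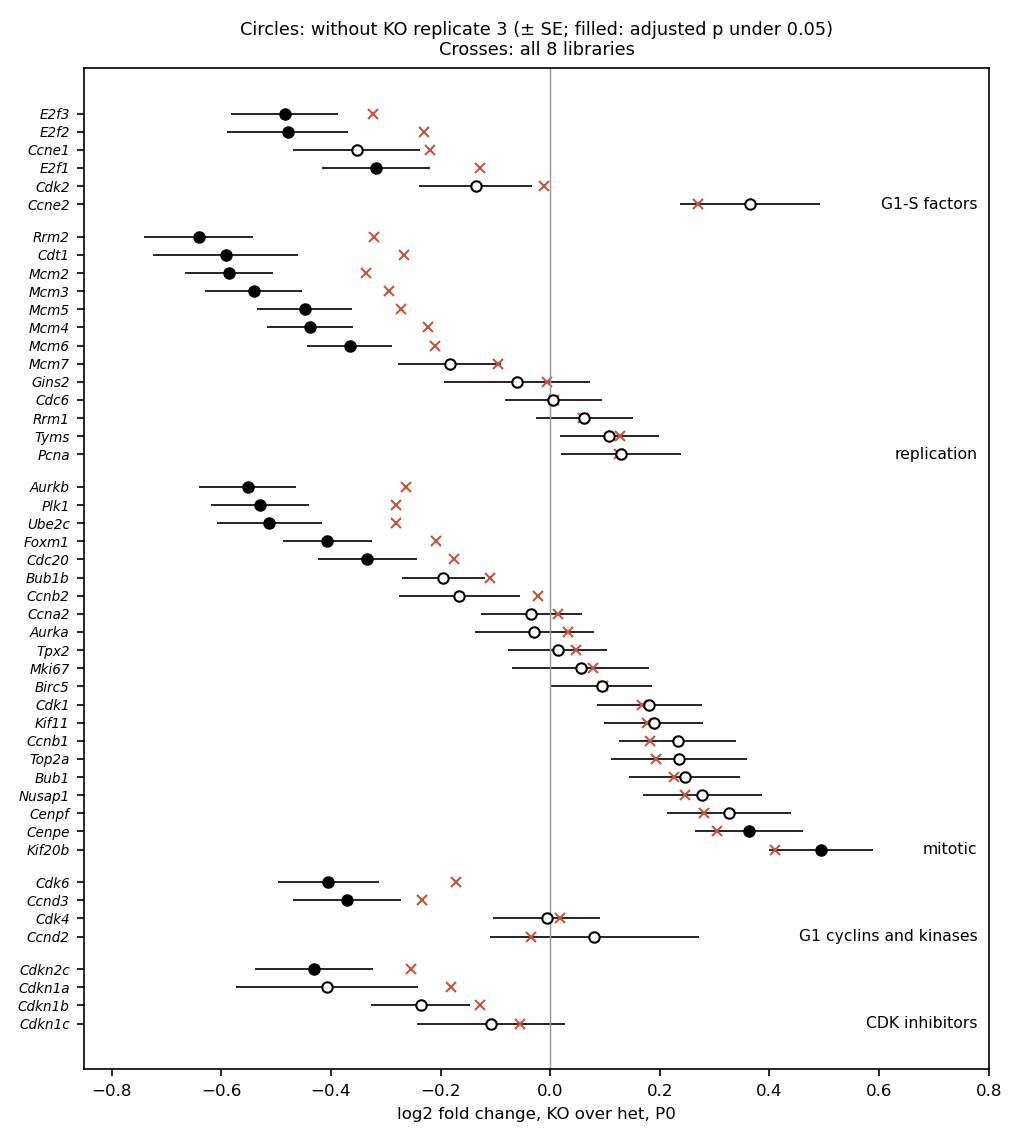
Log2 fold change of KO over het at P0 for each of the 48 genes, grouped by class. Circles are the edgeR fit without KO replicate 3 with 1 standard error on each side, filled where the adjusted p was under 0.05, and crosses are the fit on all 8 libraries. The filled circles of 10 S-phase genes, 5 mitotic genes, 2 G1 cyclins and kinases and 1 CDK inhibitor lie to the left of 0 and those of Cenpe and Kif20b to the right, and most crosses lie nearer to 0 than their circles.

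Among the G1-to-S factors, the 3 activator E2Fs passed without KO library 3, and the cyclin E pair did not. With GC-corrected offsets, 1 of the 3, E2f3, was still called: E2f1 was then at -0.06 and E2f2 at -0.27. E2f3 (ENSMUSG00000016477.18), a transcription factor that starts the S-phase programme, stood at 32.6, 32.2, 30.3 and 33.8 CPM in het libraries 1 to 4 and at 24.2, 25.7, 32.1 and 20.9 CPM in KO libraries 1 to 4. KO libraries 1, 2 and 4 lay below all het libraries, and KO library 3 lay among them. Its log2 fold change was -0.32 (SE 0.12) over 8 libraries, with an edgeR adjusted p of 0.526, and -0.48 (SE 0.10) without KO library 3, with an edgeR adjusted p of 0.00405. E2f1 stood at 108, 135, 116 and 142 CPM in het and at 104, 98.6, 149 and 107 CPM in KO libraries 1 to 4. Here KO library 3 was the highest of the 8, and the fold change without it was -0.32 on the log2 scale (SE 0.10, edgeR adjusted p 0.0417), against -0.13 (SE 0.14) with it. E2f2 fell without KO library 3 by 0.48 (log2, SE 0.11), against -0.23 with it. Ccne2, the cyclin that activates CDK2 at the start of S phase, stood the other way, at 29.2, 24.4, 20.8 and 27.1 CPM in het and at 29.7, 40.0, 21.8 and 30.6 CPM in KO libraries 1 to 4. Its KO libraries 1, 2 and 4 lay above every het library, and its log2 fold change of 0.36 without KO library 3 missed the threshold (edgeR adjusted p 0.0685). The value was 0.27 over 8 libraries. With GC-corrected offsets it was 0.0020 over 8 libraries and 0.04 without KO library 3.

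Most subunits of the MCM helicase were lower in KO libraries 1, 2 and 4. The helicase of the 6 proteins Mcm2 to Mcm7 unwinds DNA at the replication fork, and Cdt1 loads it on origins. Mcm2 (ENSMUSG00000002870.8) stood at 152, 158, 170 and 179 CPM in het and at 108, 114, 184 and 115 CPM in KO libraries 1 to 4. Mcm5 (ENSMUSG00000005410.6) stood at 133, 142, 162 and 157 CPM in het and at 106, 119, 157 and 111 CPM in KO. For both, KO libraries 1, 2 and 4 lay below all het libraries, and KO library 3 lay among the higher het libraries or above them. Mcm2 fell by 0.59 on the log2 scale without KO library 3 (SE 0.08, edgeR adjusted p 0.000438), the smallest p of the 48 genes, against -0.34 (SE 0.15) with it. Without KO library 3, the log2 fold changes of the other called subunits were -0.54 for Mcm3, -0.45 for Mcm5, -0.44 for Mcm4 and -0.37 for Mcm6, and Cdt1 fell by 0.59. Over all 8 libraries they were -0.29 for Mcm3, -0.27 for Mcm5, -0.22 for Mcm4, -0.21 for Mcm6 and -0.27 for Cdt1. With GC-corrected offsets and without KO library 3, Mcm2 to Mcm6 were still called and Cdt1 was not (-0.36, edgeR adjusted p 0.0745). Mcm7 was the exception, at -0.18 (SE 0.09, edgeR adjusted p 0.206) without KO library 3 and -0.09 with it, and 7.25% of its exonic bases also belong to Ap4m1 on the other strand.

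The nucleotide and fork genes were split. Rrm2 (ENSMUSG00000020649.11), the regulated subunit of ribonucleotide reductase, stood at 84.9, 76.9, 75.7 and 91.1 CPM in het and at 60.8, 51.9, 101 and 49.3 CPM in KO libraries 1 to 4. KO library 3 was the highest of the 8 libraries and the other 3 KO libraries were the lowest. Without KO library 3 it fell by 0.64 on the log2 scale (SE 0.10, edgeR adjusted p 0.000780), the furthest of the 48 genes, and with it the value was -0.32 (SE 0.18). Its partner subunit Rrm1, by contrast, was at 0.06 (SE 0.09), and Tyms, which makes thymidylate, at 0.11 (SE 0.09). Pcna stood at 233, 190, 276 and 242 CPM in het and at 254, 293, 234 and 245 CPM in KO libraries 1 to 4. These ranges overlapped with or without KO library 3, and the log2 fold change without it was 0.13 (SE 0.11, edgeR adjusted p 0.448).

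**Figure D2:**
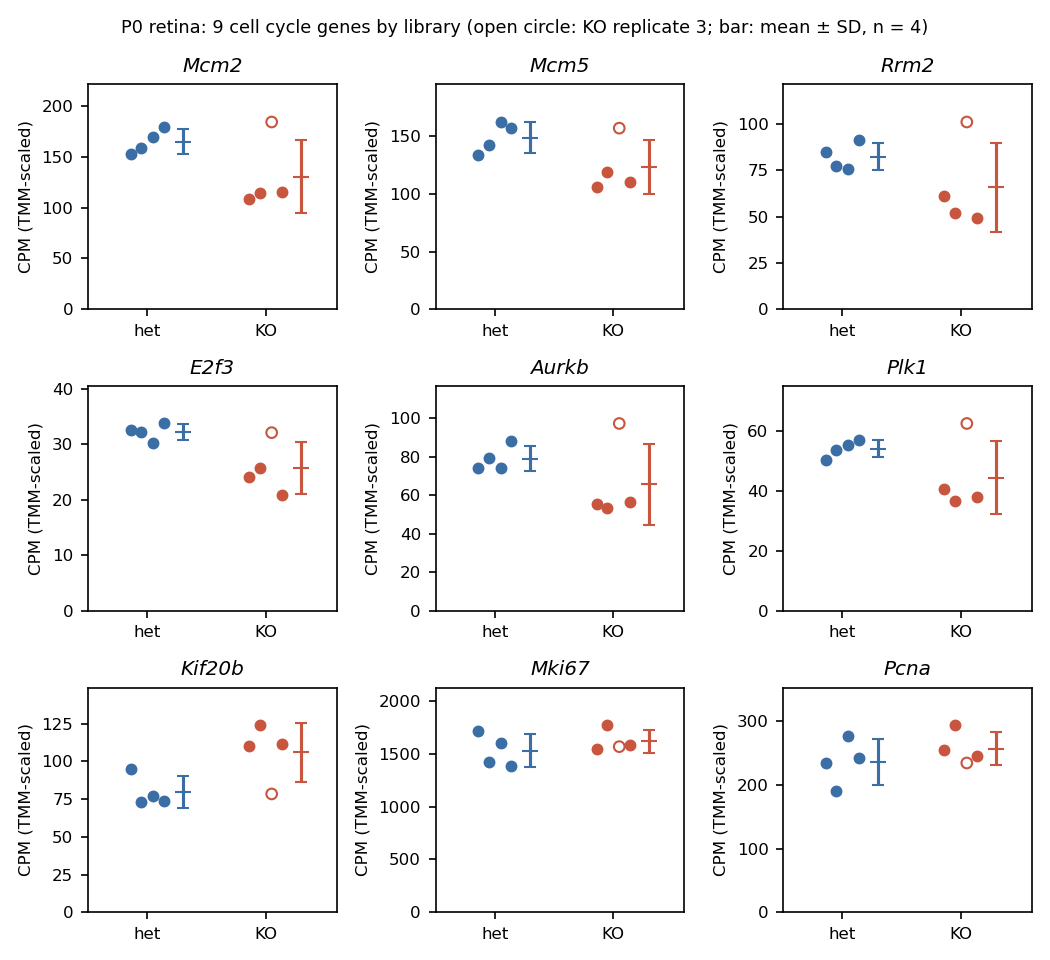
CPM after TMM scaling in each P0 library for 9 cell cycle genes, het in blue and KO in red, with KO replicate 3 as an open circle and bars for the mean ± SD over 4 libraries. For Mcm2, Mcm5, Rrm2, E2f3, Aurkb and Plk1 the filled KO points lie below every het point and the open one does not. Kif20b shows the opposite order, and Mki67 and Pcna overlap.

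The mitotic genes went both ways. Mki67, at 1711, 1418, 1603 and 1384 CPM in het and 1541, 1770, 1566 and 1582 CPM in KO libraries 1 to 4, overlapped between the genotypes. Top2a stood at 1029, 819, 1021 and 858 CPM in het and at 1037, 1288, 887 and 1050 CPM in KO. The groups of Top2a overlapped over all 8 libraries and, scaled without KO library 3, over the remaining 7, and its log2 fold change of 0.23 (SE 0.12) in that fit had an edgeR adjusted p of 0.220. Cdk1, the kinase that drives entry into mitosis, was at 117, 105, 130 and 104 CPM in het and at 139, 143, 114 and 116 CPM in KO libraries 1 to 4. Its partner Ccnb1 was at 134, 110, 155 and 131 CPM in het and at 145, 181, 122 and 154 CPM in KO. Both overlapped between the genotypes, with log2 fold changes without KO library 3 of 0.18 and 0.23 and edgeR adjusted p of 0.221 and 0.157.

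Aurkb, Plk1, Ube2c, Foxm1 and Cdc20 were the mitotic genes that fell without KO library 3. Aurkb (ENSMUSG00000020897.12), the Aurora kinase of the chromosomal passenger complex, stood at 74.2, 79.2, 74.0 and 87.9 CPM in het and at 55.3, 53.5, 97.2 and 56.7 CPM in KO libraries 1 to 4. Plk1 (ENSMUSG00000030867.7), the Polo kinase of mitotic entry and spindle assembly, stood at 50.2, 53.5, 55.3 and 56.8 CPM in het and at 40.4, 36.7, 62.4 and 38.0 CPM in KO. In both genes KO library 3 was the highest of the 8 libraries and the other KO libraries were the lowest 3. Aurkb fell by 0.55 on the log2 scale without KO library 3 (SE 0.09, edgeR adjusted p 0.00101), against -0.26 (SE 0.17) with it, and Plk1 fell by 0.53 (SE 0.09, edgeR adjusted p 0.00139), against -0.28 (SE 0.15). Ube2c, the ubiquitin-conjugating enzyme of the anaphase-promoting complex, fell by 0.51, Foxm1, the transcription factor of the mitotic programme, by 0.41 and Cdc20, the activator of the anaphase-promoting complex, by 0.33. Over all 8 libraries these were -0.28 for Ube2c, -0.21 for Foxm1 and -0.18 for Cdc20. GC-corrected offsets ended the calls of Ube2c (-0.32, edgeR adjusted p 0.0503) and Cdc20 (-0.14, edgeR adjusted p 0.295) and kept those of Aurkb, Plk1 and Foxm1. Ube2c shares 22.8% of its exonic bases with Tnnc2 on the other strand, and whether counting used strand is not given in the sources used here.

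Kif20b and Cenpe were the mitotic genes that rose without KO library 3. Kif20b (ENSMUSG00000024795.11), a kinesin of cytokinesis, stood at 95.2, 72.9, 76.8 and 73.8 CPM in het and at 110, 124, 78.4 and 111 CPM in KO libraries 1 to 4. KO libraries 1, 2 and 4 lay above all het libraries, and KO library 3 lay within the het range. It rose by 0.49 on the log2 scale without KO library 3 (SE 0.10, edgeR adjusted p 0.00317), and with it the value was 0.41 (SE 0.14), the smallest unadjusted p of the members at 0.00900. Cenpe, a kinesin of the kinetochore, rose by 0.36 without KO library 3 (SE 0.10, edgeR adjusted p 0.0225), and with it the value was 0.30. With GC-corrected offsets Kif20b was still called and Cenpe was not (0.25, edgeR adjusted p 0.0629), and Cenpe was called in 12 of the 16 fits without KO library 3. Cenpf, at 0.33, and Nusap1, which bundles spindle microtubules, at 0.28, missed the threshold (edgeR adjusted p 0.0669 and 0.103).

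The G1 cyclins and their kinases had no common direction. Cdk6, a kinase partner of D-type cyclins, stood at 180, 161, 151 and 145 CPM in het and at 125, 113, 195 and 133 CPM in KO libraries 1 to 4. Ccnd3 stood at 27.3, 25.4, 23.8 and 29.1 CPM in het and at 21.6, 21.1, 27.0 and 20.1 CPM in KO. In both, KO libraries 1, 2 and 4 lay below every het library, and without KO library 3 they fell by 0.40 (Cdk6, SE 0.09, edgeR adjusted p 0.00862) and by 0.37 (Ccnd3, SE 0.10, edgeR adjusted p 0.0204). With it the values were -0.17 for Cdk6 and -0.23 for Ccnd3. GC-corrected offsets kept the call of Cdk6 and took Ccnd3 to -0.15 (edgeR adjusted p 0.347), no longer called. Cdk4 stood at 303, 293, 358 and 284 CPM in het and at 335, 326, 305 and 286 CPM in KO. Ccnd2 varied most among the KO libraries, at 61.1, 35.6, 26.1 and 33.6 CPM, against 34.3, 31.5, 48.0 and 46.2 CPM in het. Neither passed either test, and the sign of each small log2 fold change depended on the scaling and on which libraries were used. Cdk4 shares 19.7% of its exonic bases with Tspan31 on the other strand.

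CDK inhibitors restrain the cycle and rise as progenitors leave it, and all 4 had negative fold changes in both P0 fits (45.1% and 47.8% of all genes were negative). Cdkn1c was the exception elsewhere: with GC-corrected offsets it was at 0.12 over all 8 libraries and 0.18 without KO library 3, and without het library 4 at 0.04. Cdkn2c (p18) stood at 49.6, 46.5, 47.2 and 48.1 CPM in het and at 42.8, 35.6, 51.3 and 30.8 CPM in KO libraries 1 to 4. KO libraries 1, 2 and 4 lay below all het libraries, and without KO library 3 it fell by 0.43 on the log2 scale (SE 0.11, edgeR adjusted p 0.0144), against -0.25 with it. With GC-corrected offsets it was at -0.19 (edgeR adjusted p 0.268) and no longer called, and it was called in 11 of the 16 fits without KO library 3 described below. Cdkn1b (p27) stood at 176, 156, 138 and 159 CPM in het and at 137, 147, 165 and 126 CPM in KO, with an edgeR adjusted p of 0.0947 without KO library 3. Cdkn1a (p21) was at 18.9, 20.3, 14.6 and 19.8 CPM in het and at 18.4, 13.6, 22.1 and 10.6 CPM in KO. Cdkn1c (p57) was at 18.9, 16.6, 17.6 and 22.5 CPM in het and at 17.1, 21.7, 18.8 and 15.0 CPM in KO. The ranges of these last 3 genes overlapped, and none passed in either P0 fit. Of the 16 fits without KO library 3, Cdkn1a and Cdkn1b were each called lower in 2, and for Cdkn1b 1 of these was the fit with GC-corrected offsets (-0.35, edgeR adjusted p 0.0100).

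KO library 3 was not on 1 side in every gene. Over all 48 members it was the highest KO library in 26 and the lowest in 15, and it lay within the het range in 30, above every het library in 16 and below every one in 2. It was the highest KO library in 13 of 19 S-phase members, and among the 21 mitotic members the highest in 8 and the lowest in 10. The same positions were not counted over all genes, so these counts cannot be read as particular to the members. The mean of log2(CPM + 1) over the 19 S-phase members was 6.25, 6.24, 6.26 and 6.31 in het libraries 1 to 4 and 6.07, 6.09, 6.37 and 5.99 in KO libraries 1 to 4. That placed KO library 3 above every het library and the other 3 KO libraries below every one. The same mean over the 21 mitotic members was 7.15, 6.99, 7.20 and 7.04 in het and 7.10, 7.23, 7.17 and 7.08 in KO, where the genotypes overlapped and KO library 3 lay between the others. The difference between genotype means was -0.14 for the S-phase members, or -0.22 without KO library 3, and 0.05 and 0.04 for the mitotic members.

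**Figure D3:**
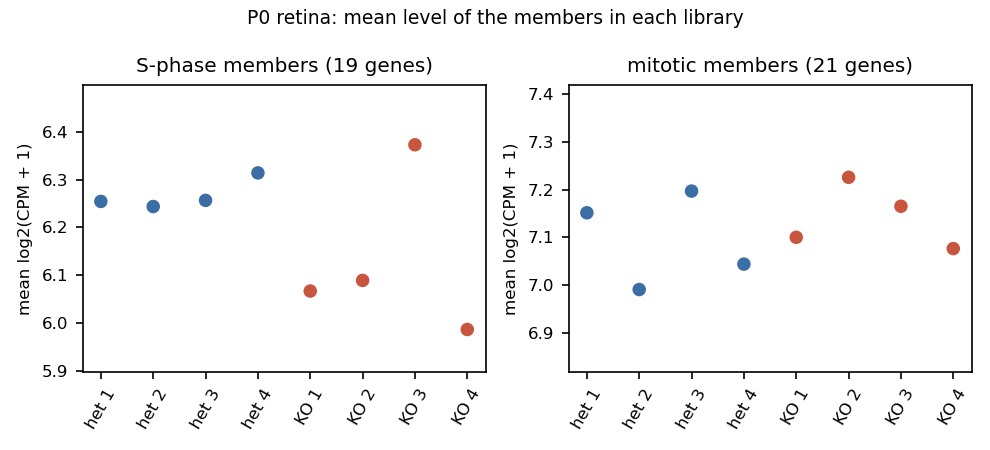
Mean of log2(CPM + 1) over the 19 S-phase members and over the 21 mitotic members in each P0 library, het in blue and KO in red. In the S-phase panel KO 3 lies highest, at 6.37, and the other KO libraries lie at 6.07, 6.09 and 5.99, below all het libraries. In the mitotic panel the genotypes overlap.

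The GC content of the transcript moved with the fold change, most of all among the mitotic genes. Across the 21 mitotic members, Spearman's rho between the GC content of the longest transcript and the log2 fold change without KO library 3 was -0.92, across the 19 S-phase members -0.43 and across all 48 members -0.67. Across 19299 genes of the table it was -0.53, and these are correlations across genes of the same 7 libraries, which are not independent replicates. The 18 lower members had a GC content of 45.1% to 58.3% (median 53.6%), and the higher members Kif20b and Cenpe 39.4% and 42.9%. When all genes were cut into 5 bins of equal size by GC content, the lowest bin had a median fold change of 0.24 (log2), and 0.492% of its genes were called lower. The highest bin had a median of -0.22, and 27.5% of its genes were called lower. From the lowest to the highest bin, 0 of 5, 3 of 13, 2 of 10, 5 of 11 and 8 of 9 members were called lower, and in the 3 middle bins 4.12%, 10.6% and 20.4% of all genes.

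A fit with GC-corrected offsets, added after seeing the data, called 13 members, and 1 of them had not been called before. It called 12 members lower (E2f3, Mcm2 to Mcm6, Rrm2, Aurkb, Plk1, Foxm1, Cdk6 and Cdkn1b) and Kif20b higher, against 7.66% of all genes called lower and 1.48% called higher. The log2 fold change was -0.67 for Rrm2, -0.48 for Mcm2, -0.42 for Aurkb, -0.33 for Plk1 and 0.26 for Kif20b. Cdkn1b, the member not called in the uncorrected fit, was at -0.35. The correction ended the call of 8 members. They were E2f1, E2f2, Cdt1, Ube2c, Cdc20, Ccnd3, Cdkn2c and Cenpe, whose corrected values are given above and are all nearer to 0. The S-phase median went from -0.35 to -0.22 and the mitotic median from 0.06 to 0.04. With KO library 3 included, this fit called 0 members, as before.

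**Figure D4:**
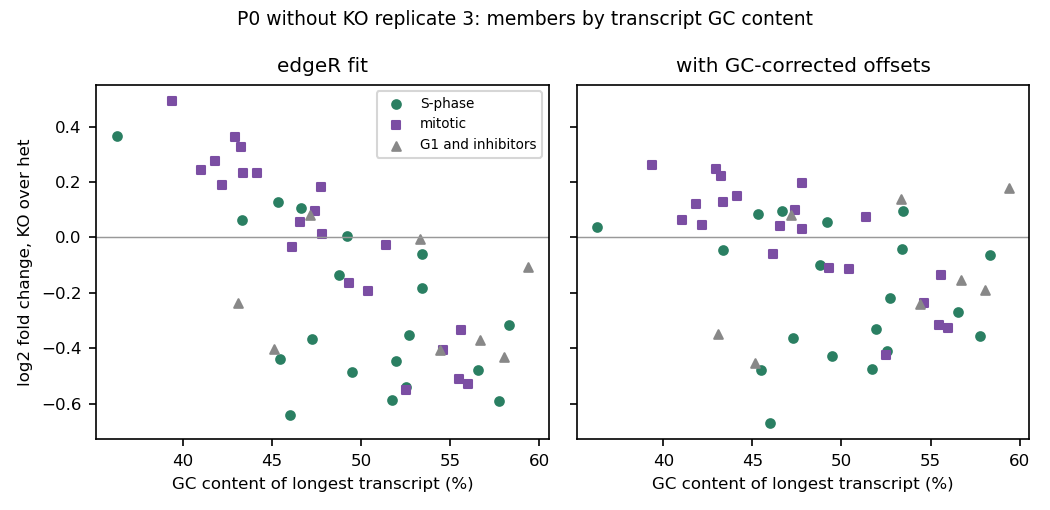
Log2 fold change of KO over het at P0 without KO replicate 3 against the GC content of the longest transcript for the 48 genes, before (left) and with GC-corrected offsets (right). On the left, the mitotic genes fall along a slope from Kif20b at 39.4% GC to Plk1 at 56.0% GC. On the right the slope is shallower, and Rrm2, Mcm2 and Aurkb keep values of -0.67, -0.48 and -0.42.

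Across 16 fits without KO library 3, which varied the scaling, the test, the filter and the libraries used, 8 members were called in every one. These fits reuse the same libraries, chosen with earlier results known, and are not independent of each other. Lower in all 16 were E2f3, Mcm2, Mcm3, Mcm5, Rrm2, Aurkb and Plk1, and higher in all 16 was Kif20b (3.74% and 0.0465% of all genes were called in all 16). Their log2 fold changes ranged from -0.70 to -0.55 for Rrm2, from -0.61 to -0.48 for Mcm2 and from 0.26 to 0.63 for Kif20b. Foxm1, Ube2c and Mcm4 were called lower in 15 of the 16, while Ccnd3 was called in 8, Cdc20 in 7 and E2f1 in 6. The S-phase median stayed between -0.36 and -0.22 across the fits without KO library 3, and the mitotic median between 0.02 and 0.14.

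Markers of several other cell states moved with these genes. The 12 progenitor markers summed to 3232 to 3678 CPM in het, to 2549 to 2952 CPM in KO libraries 1, 2 and 4 and to 4185 CPM in KO library 3, and 8 of 12 were called lower without it. Of all genes, 12.6% were called lower and 2.06% higher in that fit, which also gave the marker counts that follow. Of 10 markers of neurogenic precursors, 7 were called lower, and their sum was 1283 to 1394 CPM in het, 1130 to 1263 CPM in KO libraries 1, 2 and 4 and 1347 CPM in KO library 3. The 10 rod markers summed to 1112 to 1417 CPM in het, 1482 to 1619 CPM in KO libraries 1, 2 and 4 and 1160 CPM in KO library 3, with 3 called higher. Endothelial cells also divide in the newborn retina, and their 8 markers summed to 480 to 523 CPM in het, 345 to 412 CPM in KO libraries 1, 2 and 4 and 542 CPM in KO library 3, with 2 called lower. Of 8 Müller glia markers 6 were in the table, without Aqp4 and Abca8a. They summed to 788 to 913 CPM in het, 656 to 683 CPM in KO libraries 1, 2 and 4 and 930 CPM in KO library 3, with 1 called lower. Of 8 pigment epithelium markers 6 were in the table, without Rpe65 and Lrat, and of 7 erythroid markers 4. In 4 sets no marker was called and the sums of het and of KO libraries 1, 2 and 4 overlapped. For microglia these sums were 36.5 to 57.5 CPM in het and 34.0 to 52.6 CPM in KO, and for astrocytes 35.7 to 80.8 and 50.3 to 94.1 CPM. For pigment epithelium they were 41.6 to 89.4 and 70.8 to 123 CPM, and for erythroid cells 17.7 to 33.3 and 30.8 to 36.3 CPM. No marker in the table was at 0 throughout all 8 P0 libraries. The part of cell composition, mitochondrial share and GC content in the members' differences was not tested beyond the GC-corrected fit.

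Among cell cycle genes outside the 48, some fell and some rose. Of 29 further S-phase genes, from a list in common use for scoring single cells, 4 fell and 2 rose without KO library 3 (12.6% and 2.06% of all genes), and with it the edgeR test called 0, with 1 at an unadjusted p under 0.05. The smallest p-values were those of Uhrf1, which carries DNA methylation through replication, at -0.65 (log2, SE 0.09, edgeR adjusted p 0.000604), and Ung, the uracil-DNA glycosylase, at -0.63 (SE 0.11, edgeR adjusted p 0.00192). Over all 8 libraries Uhrf1 was at -0.33 and Ung at -0.31. Uhrf1 had a het mean of 225 ± 24.4 CPM (SD, n = 4), and KO libraries 1, 2 and 4 had a mean of 144 ± 9.51 CPM (SD, n = 3), scaled over those 7 libraries. Of 34 further G2/M genes, 3 fell and 2 rose, led by Ncapd2, a condensin subunit, at -0.51 (SE 0.09, edgeR adjusted p 0.00159), and Rangap1 at -0.42 (SE 0.08, edgeR adjusted p 0.00305), which were at -0.25 and -0.24 over all 8 libraries. The median log2 fold change was 0.02 over the further S-phase genes and 0.01 over the further G2/M genes, close to the 0.02 of all genes. With all 8 libraries the smallest p-values in these lists belonged to Pola1 and Casp8ap2, with log2 fold changes of 0.31 and 0.26, and to Nuf2 and Hmmr, with log2 fold changes of 0.32 and 0.26, all with an edgeR adjusted p of 0.526.

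The authors' deposited table for P0 called no member either. In it the smallest false discovery rate among the 48 was 0.205, for Kif20b, with a log2 fold change of 0.44, followed by Cenpe at 0.375 and Mcm2 at 0.409.

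At P22, 18 of the 48 genes were left in the deposited table. They were E2f3 and Ccne2 of the G1-to-S factors, Mcm2, Mcm4, Mcm7, Pcna, Rrm1 and Tyms of the replication genes, Ccna2, Bub1b, Cenpe, Kif20b and Nusap1 of the mitotic genes, Ccnd3, Cdk4 and Cdk6, and the inhibitors Cdkn1b and Cdkn1c. The other 30, among them Mki67, Top2a, Cdk1, Ccnb1 and Aurkb, were not rows of the table, and the rule by which rows were left out is not given in the sources used here. The lowest summed count of any row was 347 reads. Per exonic length, Cdkn1b, an inhibitor kept by cells that have left the cycle, was the highest of the 18 in het retina, at 17.3 RPKM, followed by Bub1b at 14.2 and Pcna at 13.1 RPKM. With 2 het libraries, and only 1819688 reads in het library 1, in which the members had 7 to 124 reads each, these het values carry wide counting error.

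Bub1b, a kinase-like protein of the spindle checkpoint, was the one member to pass at P22. It stood at 72.3 and 49.4 CPM in het libraries 1 and 2 and at 32.2, 36.1, 32.1 and 26.8 CPM in KO libraries 1 to 4. Every KO library lay below both het libraries. It fell by 0.88 on the log2 scale (SE 0.17, edgeR adjusted p 0.0127), and 6.41% of the 11613 genes were called lower and 4.74% higher. In the authors' deposited table its log2 fold change was -0.75 with a false discovery rate of 0.00137. Leaving out each library in turn gave -1.19 to -0.63, and it was called each time.

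The other 17 members did not pass at P22. E2f3 came nearest, at 37.3 and 33.7 CPM in het and 27.1, 26.6, 23.7 and 25.7 CPM in KO (log2 fold change -0.44, SE 0.13, edgeR adjusted p 0.0586). Mcm7 lay the other way, at 14.6 and 14.9 CPM in het and 20.2, 20.0, 21.4 and 17.7 CPM in KO (0.42, SE 0.17, edgeR adjusted p 0.124). Neither gene's groups overlapped, although neither passed. limma-voom with sample weights called Bub1b and E2f3 lower and Mcm7 higher, and 10.9% of all genes lower and 12.1% higher. KO libraries lay below both het libraries for 3 members (E2f3, Mcm2 and Bub1b; 20.4% of all genes) and above for 4 (Mcm7, Tyms, Nusap1 and Cdk4; 20.3%). Tyms had the furthest fold change of the replication genes, at 0.46 (SE 0.24), from 5.83 and 5.70 CPM in het to between 6.35 and 8.95 CPM in KO. Cdk4 was at 5.25 and 8.70 CPM in het and 9.89 to 10.7 CPM in KO, Cdkn1b at 72.3 and 85.2 CPM in het and 73.5 to 80.2 CPM in KO, and Cdkn1c at 16.3 and 16.9 CPM in het and 11.8 to 18.1 CPM in KO. The median log2 fold change of the 18 was 0.03, against 0.04 over all genes, and 8 of the 18 were negative (46.4% of all genes). GC content and log2 fold change had a Spearman's rho of -0.21 over the 18 genes and of -0.37 over 11605 genes.

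**Figure D5:**
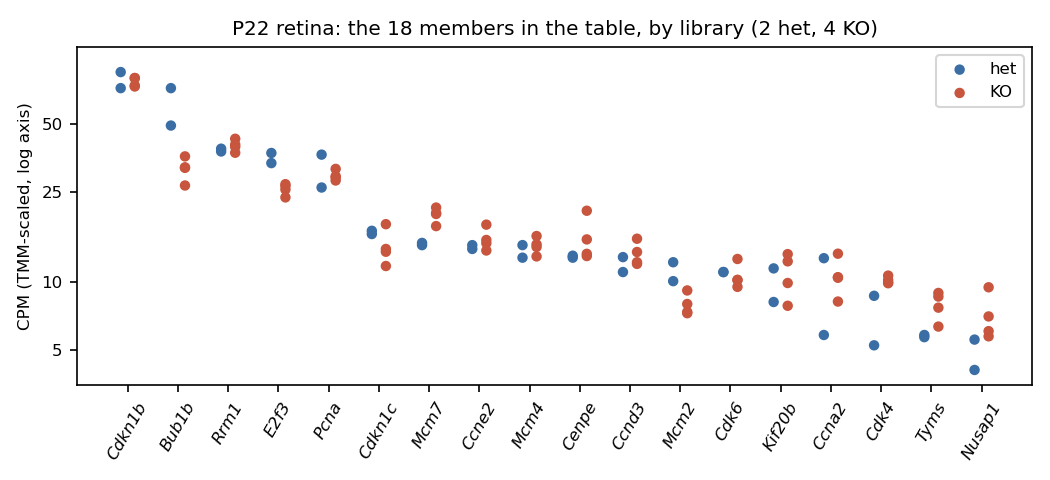
CPM after TMM scaling, on a log axis, of the 18 cell cycle genes in the P22 table, for 2 het libraries in blue and 4 KO libraries in red, ordered by the het mean. Bub1b is the gene with the widest gap between the groups, with KO values of 26.8 to 36.1 CPM below het values of 49.4 and 72.3 CPM. E2f3 and Mcm2 also have all KO points below both het points, Mcm7, Tyms, Nusap1 and Cdk4 have them above, and the other genes overlap.

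Other measures moved between the P22 groups as well. The edgeR test at P22 called 6.41% of all genes lower and 4.74% higher, the shares to set beside the counts that follow. Mitochondrial transcripts were 8.25% and 7.57% of the TMM-scaled library sizes in het and 9.88% to 12.0% in KO. The 10 rod markers summed to 81500 and 87760 CPM in het and 43678 to 54705 CPM in KO, with 8 called lower, and 5 of 8 Müller glia markers were called higher, with sums of 1171 and 1285 CPM in het and 1595 to 2148 CPM in KO. The 8 progenitor markers in the table summed to 478 and 564 CPM in het and 598 to 676 CPM in KO, so every KO library lay above both het libraries, although none of the 8 was called. Sums also lay apart for 5 neurogenic precursor markers (233 and 298 CPM in het, 415 to 479 CPM in KO, 1 called lower and 1 higher) and for 2 endothelial markers (79.9 and 91.9 against 116 to 156 CPM, 1 called higher). The same held for 4 astrocyte markers (38.4 and 51.3 against 59.6 to 73.6 CPM, 1 called higher), for 2 erythroid markers (14.0 and 16.7 against 19.0 to 30.3 CPM, none called) and, in the other direction, for 5 pigment epithelium markers (138 and 267 against 37.4 to 133 CPM, 1 called lower). Their part in the Bub1b difference was not tested. Of 15 further S-phase genes at P22, 0 passed the edgeR test, with 1 at an unadjusted p under 0.05 (Pold3 at -0.28), and Slbp followed at 0.29. Of 15 further G2/M genes 3 fell and 2 rose, led by Hmgb2, a chromatin protein, at -1.06 (SE 0.20, edgeR adjusted p 0.0113), and Anp32e, a histone chaperone, at -0.83 (SE 0.16, edgeR adjusted p 0.0127). Hmgb2 stood at 56.6 and 52.4 CPM in het and between 19.0 and 32.4 CPM in KO.

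The difference in genotype effect between P0 and P22 was tested in 1 edgeR interaction model over the 11428 genes in both tables. Age and library kit coincided, so a difference between the ages cannot be told apart from one between the kits. Of the 18 members, 1 passed (4.1% of all genes), Bub1b, whose effect at P22 was lower than that at P0 by 0.80 on the log2 scale (SE 0.18, edgeR adjusted p 0.0193). At P0 Bub1b stood at 127, 125, 139 and 129 CPM in het and at 116, 124, 132 and 110 CPM in KO libraries 1 to 4, with a log2 fold change of -0.11 (SE 0.09). The overlap of the groups came from KO library 3, since KO libraries 1, 2 and 4 lay below every het library, and without it the value was -0.19 on the log2 scale (SE 0.08, edgeR adjusted p 0.101). Without P22 het library 1, the shallow one, the interaction no longer passed for any member (5.11% of all genes). Without P0 KO library 3, Mcm7 passed too (10.7% of all genes).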

How the data were processed

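RNA sequencing of 14 mouse retina libraries was used, grouped by the genotype and age in the labels. Per the submitters' processing notes, reads were trimmed with Trim Galore, aligned with STAR to mm10, counted with HTSeq and tested with edgeR, and versions, annotation and strand use in counting are not given in the sources used here. Per the file headers, the deposited read counts are whole numbers with 1 column per library. The CPM columns are the authors' scaling to library size, and dividing count by CPM gave 1 total per library, used here as its size. The log2 fold changes and the p-values and false discovery rates in the deposited tables are the authors' own, per the file headers.

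Each age was fitted over its whole table in R 4.3.3 with edgeR 4.0.16 (filterByExpr, which removed no gene, TMM, estimateDisp, glmQLFit, glmQLFTest), with Benjamini-Hochberg adjustment over the whole table and genes called at 0.05. The standard error is the fold change divided by the square root of F. RPKM divides CPM by the gene's exonic length in GENCODE (GRCm38), and all 48 members matched by identifier. Alternatives were DESeq2 1.42.0, limma 3.58.1 voom with sample weights, an exact test, other scalings and filters, a replicate block, leaving out each library and, added after seeing the data, GC-corrected offsets (lowess, span 0.3). The fits were tested on simulated data.

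The members, the lists and the fit without KO library 3 were chosen with earlier results of these data known. Values per library are given for a fixed core of 20 members and for the member of each class with the smallest p or the largest fold change in each fit; other members were named where they passed the test. Replicate numbers come from the titles. Deviations of same-numbered P0 libraries correlated at -0.30 to -0.08 across genes. At P22 they correlated at 0.20 for replicate 1 and at -0.09 for replicate 2. The sources used here do not say whether the numbers pair animals, so they were not taken as pairs. No 2 libraries agreed within sampling noise. The P0 libraries held 15028865 to 19833083 reads and the P22 libraries 1819688 to 22813199, and floors of 3 reads cover counting error only.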

Additional observations from a re-analysis of the deposited data

Results flagged for a closer look

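Of 89 groups of 4 libraries examined, 5 had 1 library far from the others by Dixon's criterion, which chance alone marks in about 1 group in 20. The genes examined included every member called without KO library 3, which favours flags of that library, and the groups share libraries. The count of flags can therefore not be judged against that rate. All 5 concern KO library 3 at P0, which stood above the other 3 KO libraries at 97.2 CPM for Aurkb, 62.4 CPM for Plk1, 184 CPM for Mcm2, 95.1 CPM for Cdc20 and 121 CPM for Mcm4. Bub1b had a genotype effect that differed between the ages, by -0.80 on the log2 scale (P22 minus P0) in the interaction test. Age and library kit cannot be told apart in that test.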

How the results depend on the processing

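Over all 8 P0 libraries, 0 members were called in every fit that kept KO library 3, the replicate block included, except limma-voom with sample weights, which called 18 members and 10 further cell cycle genes. Leaving out 1 library gave 0 to 20 members and 0 to 11 further genes, the upper values being those without KO library 3. Without KO library 3, GC-corrected offsets called 13 members and 7 further genes (9.15% of all genes), and leaving out 1 more library gave 12 to 23 and 5 to 16 (6.11% to 16.5% of all genes), the lowest for the members being without KO library 2. With the replicate block as the pairing, that fit called 20 members, as without it, while calls over all genes went from 14.7% to 11%. At P22, voom called 3 members (Bub1b and E2f3 lower, with 10.9% of all genes, and Mcm7 higher, with 12.1%) and 8 further genes, and leaving out 1 library gave 1 to 1 and 2 to 4 (2.96% to 11% of all genes). The replicate block left 1 member called at P22 (15.2% of all genes). The interaction called 2 members by library totals (6.81% of all genes) and 0 to 2 when 1 library was left out. Single members that changed sign were all far from the threshold. At P0, with all libraries, E2f1 went to 0.012 and Cdkn1c to 0.12 with GC-corrected offsets, and Ccnd2 to 0.0051 in the exact test, 0.0046 by library totals and 0.046 by voom. When 1 library was left out, the ranges were -0.0017 to 0.18 for Pcna, -0.33 to 0.081 for Ccnd2, -0.043 to 0.064 for Cdk4 and -0.16 to 0.039 for Cdkn1c. Without KO library 3, Cdk4 went to 0.019 with the CPM filter, to 0.017 with the DESeq2 Wald test and with DESeq2 size factors, to 0.14 with GC-corrected offsets, to 0.080 in the exact test and by library totals and to 0.067 with the replicate block, and Cdkn1c to 0.18 with GC-corrected offsets. When 1 more library was left out, the ranges were -0.21 to 0.24 for Ccnd2, -0.015 to 0.093 for Cdk4 and -0.24 to 0.024 for Cdkn1c. At P22, GC-corrected offsets gave -0.21 for Ccne2, -0.19 for Kif20b and -0.036 for Mcm4. The exact test gave 0.085 for Cdk6 and 0.087 for Cdkn1b, and library totals 0.083 and 0.086. Voom gave -0.19 for Kif20b and -0.036 for Mcm4, and the replicate block 0.080 for Cdk6, -0.16 for Kif20b and -0.011 for Mcm4. When 1 library was left out at P22, the ranges were -0.31 to 0.17 for Pcna, -0.15 to 0.00067 for Cdk6, -0.15 to 0.086 for Cdkn1b, -0.093 to 0.40 for Kif20b and -0.012 to 0.17 for Mcm4. The cause of these changes was not tested. With 2 het libraries at P22, 1 of them shallow, leaving out either leaves a group of 1, whose spread is taken from the other libraries, and the members had only 7 to 124 reads in the shallow library.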

Other observations

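Gins2, a subunit of the replicative helicase complex, stood at 18.2 ± 3.19 CPM in het and 18.1 ± 1.58 CPM in KO at P0 (SD, n = 4 each), but 67.3% of its exonic bases also belong to Gse1 on the other strand. Ccne2 shares 17.4% of its exonic bases with Ints8, Ccna2 shares 12.5% with Exosc9 and Cdkn1c shares 30.7% with Gm44732, all on the other strand. How reads in these shared bases were assigned is not given in the sources used here, so the values of these 4 genes are uncertain.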
